A study of Arabidopsis thaliana with 6 samples.

Results

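The genes described here are those whose signal in Arabidopsis seedlings was lower on every array that was not a plain control array. Of 22746 probe sets, 13090 had at least 30 intensity units on both control arrays. Among these, 87 (0.665%) lay at or below the lower control divided by 1.4 on all 4 other arrays, after values under 10 units had been raised to 10. COR15A, COR15B, AT1G07050, CML23, AT3G05640 and AT1G19210 met the same criterion but were left out by name, which left 81 members. The array annotation gives 1 gene for 36 of the members, several genes for 4 and no gene for 41. Membership was set by the values themselves, so the distance of the members from the control is described below without a test.

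The series asked about the role of CDPK6, a calcium-dependent protein kinase, in development. RNA of whole Col-0 seedlings was hybridised to 6 ATH1 arrays, with about 40 plants pooled for each, kept at 22 °C in the growth room under 16 h of light a day. The cdpk6-yfp line 4 (strain label cdpk6-yfp 4) had 2 arrays, and the cdpk6-yfp line 1 (cdpk6-yfp-1) had 1 array. The control, aeq+, had 2 arrays and carries an aequorin transgene, which makes a luminescent calcium reporter, so it is a transgenic line and not a wild type. A further array, with the title code A3-1, is called cdpk6-yfp-1 by its strain label but a control by its source name and by the numbering of its title. It was placed in no group and is called the array of conflicting labels. It took part in choosing the members, but not in the main test of line 4 against line 1. It joined a group only in alternative fits, named as such below. The promoter that drives cdpk6-yfp, whether the cdpk6-yfp lines also carry aequorin, and the age of the seedlings are not given in the sources used here.

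Calcium-dependent protein kinases carry calcium-binding EF-hands and a kinase domain in a single protein, and so turn a rise of cytosolic calcium into phosphorylation of their targets. In Arabidopsis they are known for work in abscisic acid, stress and immune signalling as well as in growth. The transcript of CDPK6 itself was not analysed here, since 0 probe sets were named as CPK3 or CPK6, the genes that carry or have carried that name.

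The arrays were comparable in overall signal, with medians from 44.2 to 46.4 units. The scanner background averaged 89.78 to 95.64 on 5 arrays and was higher, 142.62, on control replicate 2. Control replicate 2 held the lower control value for 39 members and control replicate 1 for 42. The 25S ribosomal RNA probe set read 275.4 and 915.9 units in line 4, 1073.1 in line 1, 2189.3 on the array of conflicting labels and 282.1 and 277.2 in the control. The 3′ to 5′ signal ratio of actin, a sign of RNA quality, was 3.19 and 3.48 in line 4, 4.17 in line 1, 4.67 on the array of conflicting labels and 4.27 and 4.30 in the control. The part of these differences in the members' values was not tested. Across the 13090 probe sets, the array of conflicting labels correlated at 0.886 to 0.899 with the line 4 and control arrays and at 0.935 with line 1, where the other 5 arrays correlated with each other at 0.929 to 0.990. Of the leaf photosynthesis markers 2 of 13 were named on the array, LHCB4.1 and RCA, and both were bright on every array, RCA at 2901.8 and 2755.9 units in line 4, for example. Of the root markers 2 of 8 were named, EXPA7 and EXPA18, and they read between 23.7 and 50.5 units.

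**Figure D1:**
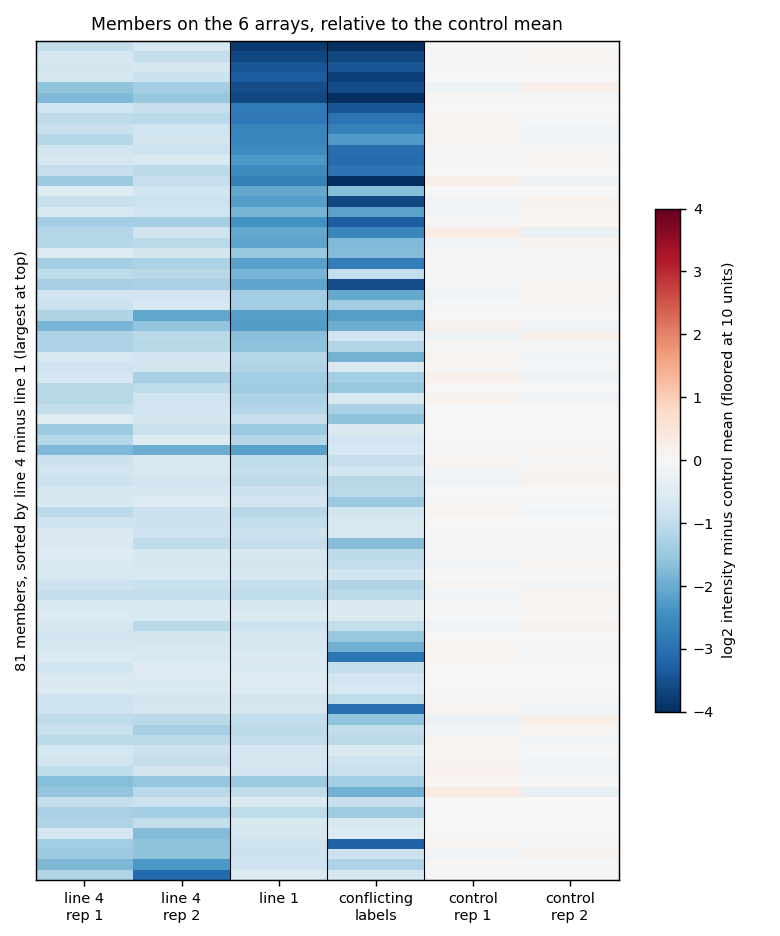
Colour shows the log2 intensity of each of the 81 members (rows) minus its control mean on the 6 arrays (columns), blue for lower, with the members sorted by the difference of line 4 from line 1. The members at the top are less low in line 4 than in line 1 and mostly less low than on the array of conflicting labels, whereas those in the middle are lower by similar amounts in both lines.

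Relative to the control mean, the members had a median difference of -0.86 on the log2 scale in line 4 (range -2.15 to -0.56), of -1.12 in line 1 (range -3.84 to -0.52) and of -1.37 on the array of conflicting labels (range -4.34 to -0.54). The corresponding medians over all 13090 probe sets were -0.04, 0.02 and 0.04. All members share the same 2 control arrays, so an error in these enters all 3 comparisons. Of the 81 members, 28 were at least 2-fold lower in line 4, 47 in line 1 and 52 on the array of conflicting labels, and 2, 24 and 25 were at least 4-fold lower. In whole seedlings, less RNA per cell and fewer cells of the type that expresses a gene cannot be told apart. The rule used these contrasts, so nothing is read from the 73 members that passed a limma adjusted p of 0.05 as lower in line 4 than in the control, where 6.97% of all 14300 probe sets tested did so. Likewise nothing is read from the 47 that were at least 2-fold below the control mean and below both control arrays in line 1, where 3.19% of all probe sets were.

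The members differed in how evenly they were lowered. For 31 members the highest and the lowest of the 4 arrays lay within 1.5-fold of each other, which held for 61.8% of the 13090 probe sets. For 17 members they lay more than 4-fold apart, which held for 2.89% of the 13090. The lowest of the 4 values was on the array of conflicting labels for 47 members (58.0%, against 28.8% of the 13090), in line 1 for 19 and on a line 4 array for 15. The rule chose the members by these 4 values, which it capped from above and did not limit downwards. The shares are therefore a description, and nothing is read from their distance from those of the 13090. Replicates of the members differed by a median of 0.14 on the log2 scale both in line 4 and in the control. Named members lie on all 5 chromosomes, 12 of them on chromosome 1, 7 each on chromosomes 2 and 4, 6 on chromosome 3 and 4 on chromosome 5. AT4G27654 and AT4G27657 are next to each other on chromosome 4 with 0 protein-coding genes between them in the TAIR10.1 gene table.

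Genes of the cell wall and cell surface made up 8 of the 36 named members, a grouping made after the members were known. The share of each role among all named probe sets was not counted, so nothing is read from the size of a role. AT4G38080, a hydroxyproline-rich glycoprotein gene, read 154.2 and 149.1 units in line 4, 145.5 in line 1 and 142.4 on the array of conflicting labels, against 274.7 and 321.9 in the control. Its 4 lowered values lie within 1.08-fold of each other, at close to 2-fold below the control on each array. AT5G09480, annotated like AT4G38080 as a hydroxyproline-rich glycoprotein gene, read 77.0 and 81.7 units in line 4, 65.7 in line 1 and 76.2 on the array of conflicting labels, against 117.1 and 137.7 in the control. AT3G58550, of the lipid-transfer protein family, read 162.8 and 174.9 units in line 4, 126.9 in line 1 and 195.2 on the array of conflicting labels, against 298.0 and 281.6 in the control. AT4G33550, of the same broad family, read 53.9 and 64.9 units in line 4, 64.5 in line 1 and 59.0 on the array of conflicting labels, against 123.7 and 95.5 in the control. Proteins of this family carry lipids outside the cell, among other tasks.

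The pectin genes of this group differed more between the control arrays than the 4 genes above. AT1G57590, a pectin acetylesterase gene, read 34.4 and 48.9 units in line 4, 51.2 in line 1 and 27.1 on the array of conflicting labels, against 131.2 and 80.5 in the control. AT1G60590, of the pectin lyase-like family, read 28.6 and 31.7 units in line 4, 21.1 in line 1 and 38.9 on the array of conflicting labels, against 57.9 and 78.0 in the control. As the rule requires of every member, both control arrays lay above all 4 others for each of these genes. Their 2 control values differed by more than the median of 0.14 over the members. AT1G74460, a GDSL-type lipase gene, read 53.8 and 64.1 units in line 4, 79.3 in line 1 and 80.2 on the array of conflicting labels, against 125.1 and 124.8 in the control. AT1G21480, of the exostosin family of glycosyltransferases, had the widest replicate spread of the group, with 39.2 and 10.4 units in line 4, 60 in line 1 and 55.2 on the array of conflicting labels, against 87.4 and 91.7 in the control.

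**Figure D2:**
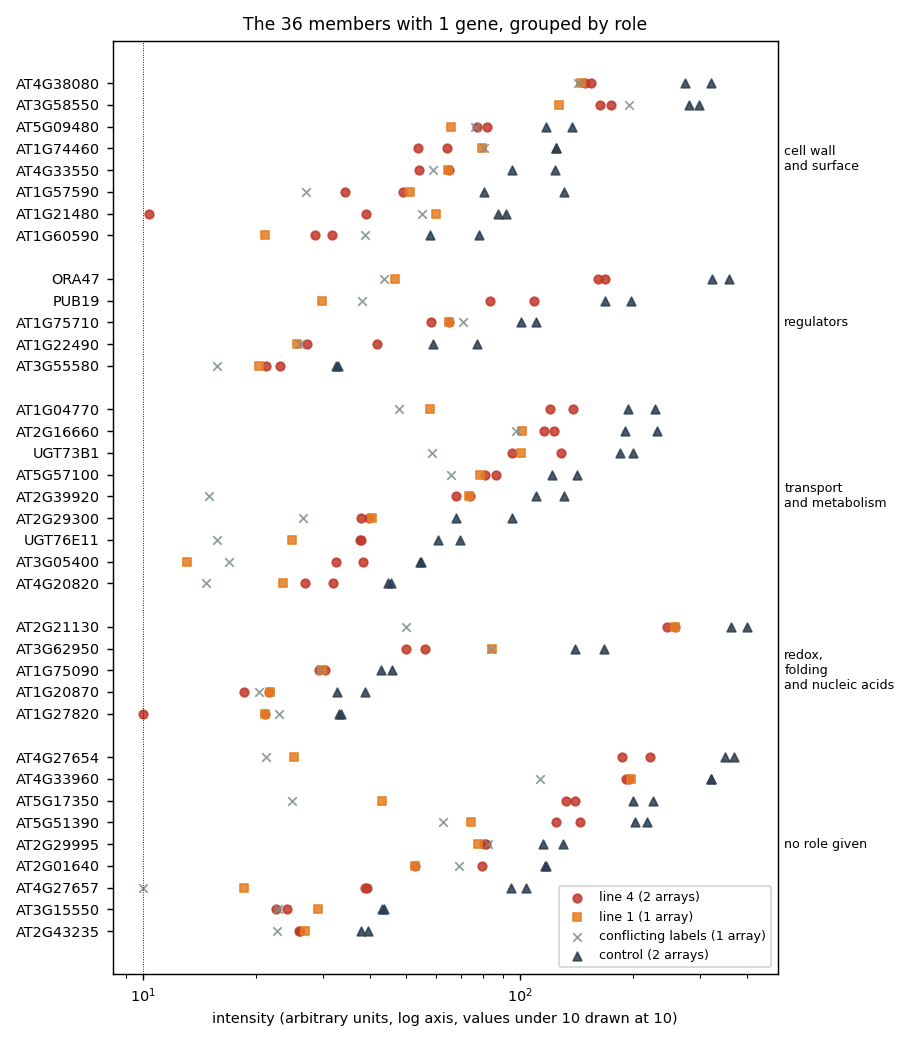
Each point is the intensity of a gene (rows, grouped by role) on 1 array, on a log axis, for line 4 (circles), line 1 (squares), the array of conflicting labels (crosses) and the control (triangles). Control values lie to the right of all others for each of the 36 genes, as the rule requires, while ORA47, PUB19 and AT4G27654 have line 4 values well apart from line 1 and the array of conflicting labels.

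Regulators made up 5 of the named members. ORA47 encodes an AP2/ERF transcription factor of the DREB group that responds to jasmonate and promotes its synthesis. It read 168.7 and 161.6 units in line 4, 46.6 in line 1 and 43.6 on the array of conflicting labels, against 358.9 and 324.4 in the control. It was thus 2.07-fold lower than the control in line 4 and 7.32-fold lower in line 1. PUB19, a U-box ubiquitin ligase that dampens abscisic acid and drought responses, read 83.3 and 109.1 units in line 4, 29.8 in line 1 and 38.1 on the array of conflicting labels, against 197.4 and 168.7 in the control. For both genes the line 4 values lie above line 1 and the array of conflicting labels. That they lie below the control is set by the rule.

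The other 3 regulators lay closer to the control in line 1 than ORA47 and PUB19 did, and their values in both lines were nearer to each other. AT1G75710, a C2H2 zinc finger gene, read 65.0 and 58.3 units in line 4, 65.0 in line 1 and 70.8 on the array of conflicting labels, against 110.4 and 100.5 in the control. AT1G22490, which encodes the basic helix-loop-helix factor bHLH094, read 41.9 and 27.3 units in line 4, 25.6 in line 1 and 26.2 on the array of conflicting labels, against 77.1 and 59.0 in the control. AT3G55580 encodes a protein of the RCC1 family that is known from work on freezing tolerance. It read 23.1 and 21.2 units in line 4, 20.3 in line 1 and 15.7 on the array of conflicting labels, against 32.5 and 32.9 in the control, all close to the minimum that the rule asks of the control.

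Transport and metabolism accounted for 9 named members. AT1G04770, known as SDI2 for its induction by sulfur deficiency, read 138.0 and 120.6 units in line 4, 57.8 in line 1 and 47.9 on the array of conflicting labels, against 193.7 and 228.3 in the control. AT3G05400, a sugar transporter gene of the ERD6-like group, read 38.3 and 32.5 units in line 4, 13.1 in line 1 and 16.9 on the array of conflicting labels, against 54.7 and 54.4 in the control. In both genes the line 1 value lies below both line 4 arrays and beside the array of conflicting labels. The other 2 transporter genes were more even. AT2G16660, of the major facilitator superfamily, read 116.1 and 123.1 units in line 4, 101.3 in line 1 and 97.5 on the array of conflicting labels, against 190.0 and 231.0 in the control. AT5G57100, of the nucleotide-sugar transporter family, read 86.6 and 80.9 units in line 4, 78.5 in line 1 and 65.7 on the array of conflicting labels, against 121.4 and 141.7 in the control.

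Of the enzymes, UGT76E11 and UGT73B1 transfer sugar to small molecules. UGT76E11 read 37.7 and 37.9 units in line 4, 24.8 in line 1 and 15.7 on the array of conflicting labels, against 60.5 and 69.2 in the control. UGT73B1 read 128.5 and 95.5 units in line 4, 100.8 in line 1 and 58.4 on the array of conflicting labels, against 185.0 and 199.7 in the control. AT2G29300, a short-chain reductase gene of the tropinone reductase type, was 2.07-fold lower than the control in line 4 and 1.98-fold lower in line 1. AT4G20820, of the berberine bridge enzyme family, was 1.54-fold and 1.91-fold lower in these lines, and its ratio of the lower control to the highest other value was exactly the 1.4 of the rule. AT2G39920, of the HAD superfamily of acid phosphatases, read 67.6 and 73.8 units in line 4, 73.4 in line 1 and 130.9 and 110.4 in the control. On the array of conflicting labels it read 15.0, far below all other arrays.

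Another 5 named members belong to redox, protein folding and nucleic acid functions. AT3G62950, a CC-type glutaredoxin gene, read 56.1 and 50.0 units in line 4, 84.3 in line 1 and 84.0 on the array of conflicting labels, against 140.4 and 167.7 in the control. Here line 4 had the lowest values, 2.90-fold below the control, while line 1 was 1.82-fold below it. AT2G21130, a cyclophilin gene, read 257.7 and 245.1 units in line 4, 257.8 in line 1 and 401.7 and 363.1 in the control, with 50.0 on the array of conflicting labels. AT1G75090, of a DNA glycosylase family, was the most even of the 36 named members, at 30.4 and 29.3 units in line 4, 29.9 in line 1 and 29.6 on the array of conflicting labels, against 42.8 and 45.8 in the control. AT1G20870, of the HSP20-like family, read between 18.5 and 21.7 units on the 4 arrays, against 38.8 and 32.8 in the control. AT1G27820, of the CAF1 family of deadenylases, read 21.1 and 4.1 units in line 4, 21.1 in line 1 and 23.0 on the array of conflicting labels, against 33.6 and 33.1 in the control. Its probe set is of the type that can also match other transcripts.

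No role is given here for the other 9 named members. AT4G27657 had the largest ratio of the lower control to the highest other value among the named members, 2.42. It read 38.9 and 39.3 units in line 4, 18.6 in line 1 and 5.3 on the array of conflicting labels, against 95.0 and 103.6 in the control. Its chromosomal neighbour AT4G27654 read 187.0 and 221.2 units in line 4, 25.2 in line 1 and 21.2 on the array of conflicting labels, against 351.1 and 370.8 in the control. Both neighbours were therefore lowered least in line 4 and most on the array of conflicting labels. AT5G17350 read 132.8 and 139.9 units in line 4, 43.2 in line 1 and 24.9 on the array of conflicting labels, against 199.1 and 225.0 in the control. AT5G51390 had the same order, with 144.6 and 125.1 units in line 4, 74.1 in line 1 and 62.7 on the array of conflicting labels, against 202.6 and 217.8 in the control. In contrast, AT4G33960 was even across the lines, at 191.1 and 195.1 units in line 4, 197.4 in line 1 and 113.2 on the array of conflicting labels, against 321.5 and 322.0 in the control. AT2G29995, AT2G01640, AT3G15550 and AT2G43235 were between 1.44-fold and 2.23-fold lower than the control in either line.

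Among the 41 members without a gene name and the 4 with several, the deepest differences were larger than those of most named members. Probe set 254074_at had the largest ratio of the lower control to the highest other value of all members, 2.74. It read 59.4 and 71.4 units in line 4, 16.2 in line 1 and 3.7 on the array of conflicting labels, against 209.4 and 195.8 in the control. Probe set 252474_at, at a high level, read 583.3 and 539.6 units in line 4, 194.8 in line 1 and 142.5 on the array of conflicting labels, against 1103.4 and 1114.3 in the control. In both, as in ORA47, the line 4 values lie above line 1 and the array of conflicting labels, while the rule places them below the control. Probe set 254915_s_at was lowered evenly, with 158.0 and 175.8 units in line 4, 186.0 in line 1 and 200.5 on the array of conflicting labels, against 548.2 and 490.7 in the control. In all, 10 members had a ratio of 2 or more, of which 1 was a named gene.

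At the edge of the rule, AT4G20820, AT5G51390 and AT5G57100 were just inside, with ratios of 1.4, 1.401 and 1.402. AT3G56880, DL1B and AT4G22212 were just outside, with 1.390, 1.390 and 1.389. AT3G56880 read 1167.5 and 1230.7 units in line 4, 1017.8 in line 1, 341.6 on the array of conflicting labels and 1720.6 and 1711.0 in the control, so that its 4 values too lie below both controls. Leaving out an array can only relax the rule, so it keeps all members and adds others. The rule gave 333 without control replicate 1, 185 without control replicate 2, 137 without the line 1 array and 138 without the array of conflicting labels. It gave 305 with a factor of 1.2 in place of 1.4, and 10 with a factor of 2.

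Line 4 was compared with line 1 in a limma fit of the 5 grouped arrays. The rule did not use this difference, but it did use the values of both lines, which it capped alike and did not limit downwards. It therefore chose probe sets with changed values, and the members' counts are given beside those of all probe sets as a description from which nothing is read about the members as a group. Of the 81 members, 27 were higher in line 4 than in line 1 (33.3%, against 10.6% of all 14300 probe sets tested), 3 were lower (3.70%, against 7.49%) and 51 did not pass an adjusted p of 0.05. In either direction 30 passed, or 37.0% of the members and 18.1% of all probe sets tested. Relative to the control, the 27 were thus lowered less in line 4 than in line 1. The members' median difference was 0.28 on the log2 scale, beside -0.07 over all probe sets tested. Line 1 had 1 array, which was assumed to vary like the others. The rule placed the array of conflicting labels below both control arrays for every member. Adding it to the control therefore widens the members' spread by construction, and nothing is read from the calls lost in that fit. With the array of conflicting labels added to line 1, 22 members passed, all of them among the 30, whereas with that array added to the control 0 members passed (110 of all probe sets did). Without the filter on dim probe sets 12 passed, all among the 30. The test on simulated data with 200 changed probe sets recovered 79% of 2-fold and 100% of 4-fold differences for this comparison, with 8 false calls. The simulated arrays were all given the same spread, so this cannot check the assumption made for line 1. Only those 200 probe sets were changed, so the false calls do not carry over to the measured arrays.

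**Figure D3:**
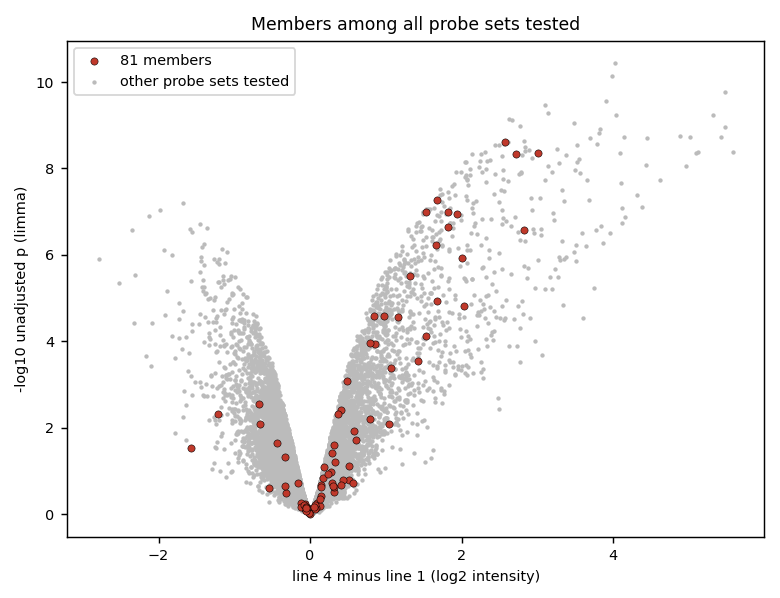
The difference of line 4 from line 1 (log2 intensity) is plotted against the −log10 unadjusted p of limma, with the 81 members in red and the other probe sets tested in grey. Members that passed are mostly on the right, and more of all probe sets tested passed on the right than on the left as well. Nothing is read from this about the members as a group, since the rule used the values of both lines.

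AT4G27654 differed most among named members, by 3.01 ± 0.13 on the log2 scale (SE, n = 2 in line 4 against 1 in line 1, limma adjusted p = 1.57e-06). ORA47 differed by 1.83 ± 0.11 (limma adjusted p = 1.17e-05), AT5G17350 by 1.66 ± 0.13 (4.03e-05) and PUB19 by 1.68 ± 0.18 (0.000374). AT3G05400, the sugar transporter gene, differed by 1.43 ± 0.24 (0.00403), AT1G04770 by 1.16 ± 0.14 (0.00073), AT4G27657 by 1.07 ± 0.19 (0.00529) and AT5G51390 by 0.86 ± 0.13 (0.00201). The lipid-transfer gene AT3G58550 passed with the small difference of 0.41 ± 0.10 (0.0272). On the array of conflicting labels it lay above both line 4 arrays, unlike the other 8, for which that array lay below them. Among probe sets without a single gene, 254926_at differed by 2.57 ± 0.10 (1.42e-06) and 266834_s_at, which matches several genes, by 2.71 ± 0.12 (1.57e-06).

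The glutaredoxin gene AT3G62950 was the 1 named member lower in line 4 than in line 1, by -0.67 ± 0.16 (SE, n = 2 against 1, limma adjusted p = 0.0215). It no longer passed without line 4 replicate 1 (-0.75, adjusted p = 0.103) or without line 4 replicate 2 (-0.59, adjusted p = 0.163), and, at about the same difference, with no variance trend (adjusted p = 0.0611), no filter (0.1835) or the array of conflicting labels as control (0.566). AT1G21480 had the most negative difference, -1.57 ± 0.60, but did not pass (adjusted p = 0.110), since its line 4 values were 39.2 and 10.4 units. AT1G74460 (-0.43 ± 0.16, adjusted p = 0.0945), AT1G27820 (-0.54 ± 0.44, 0.449), AT3G15550 (-0.33 ± 0.25, 0.409) and AT1G57590 (-0.32 ± 0.31, 0.523) did not pass either. Other members had differences near 0 between the lines, such as 0.06 ± 0.12 for AT4G38080, -0.03 ± 0.09 for AT4G33960 and -0.04 ± 0.10 for AT2G21130.

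By role, 1 of the 8 genes of the cell wall and surface was higher in line 4 than in line 1, as were 2 of the 5 regulators, 2 of the 9 genes of transport and metabolism and 4 of the 9 without a given role, where 10.6% of all probe sets tested were. None of the 5 genes of redox, folding and nucleic acids was higher in line 4, and 1 was lower (7.49% of all probe sets tested). At an unadjusted p under 0.05, 1 of those 5 differed, as did 4575 of all 14300 probe sets. These counts are too small to set a role apart from all probe sets, and no test between roles was made.

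**Figure D4:**
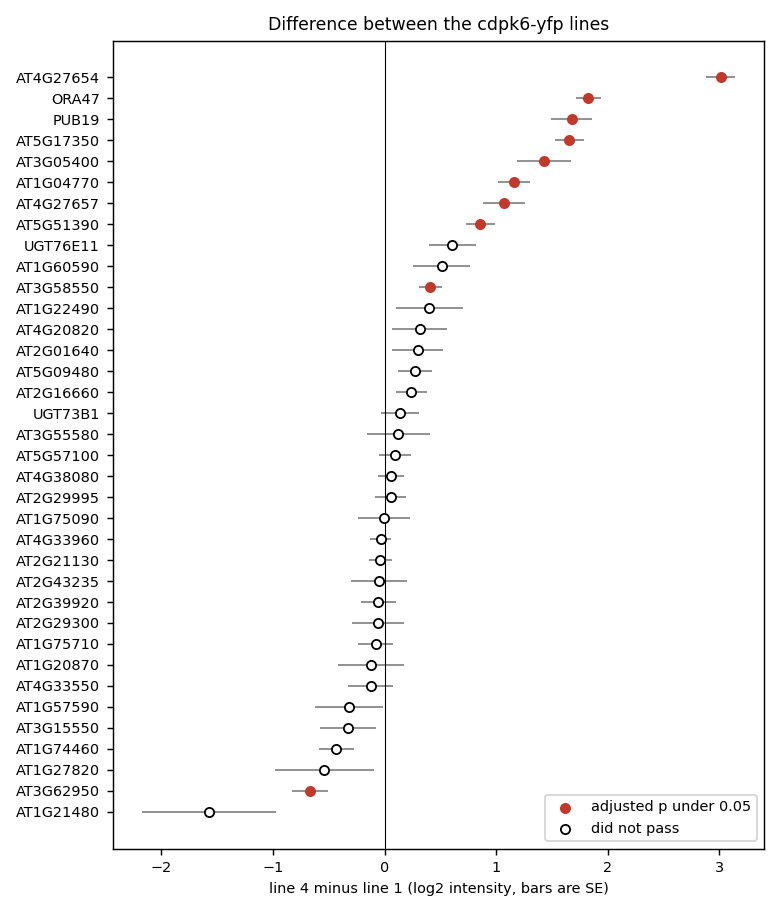
Points show the difference of line 4 from line 1 (log2 intensity) for each of the 36 named members with bars of 1 SE, filled where the limma adjusted p was under 0.05. The 9 filled points on the right run from 0.41 for AT3G58550 to 3.01 for AT4G27654, and the 1 filled point on the left is AT3G62950.

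Gene lists of related pathways, chosen with results of these data known, were read for the genes around the members. Their counts stand beside shares over all 14300 probe sets of 6.97% lower and 8.22% higher in line 4 than in the control, and of 10.6% higher and 7.49% lower in line 4 than in line 1. As the lists were chosen in this way, the counts are no independent evidence of a direction. The list of calmodulin-like and touch genes covers calcium sensors and wall enzymes induced by touch. Of its 12 genes 7 were measured, all of them calcium sensor genes and none a wall enzyme gene. All 7 of these were higher in line 4 than in line 1 (median 2.15 on the log2 scale, -0.07 over all probe sets). These included AT3G01830 (4.09 ± 0.17), CML37 (2.96 ± 0.21) and CML38 (2.15 ± 0.12). Line 1 read 2.1 units for AT3G01830 and 0.9 for CML37, which were raised to the floor, the lowest value kept, before the fit. The sizes of the differences of AT3G01830 and CML37 therefore depend on the floor. Unlike the members, most of the 7 genes were not lower in line 4 than in the control, where 4 of the 7 rose and 1 fell (CML23). Among early stress regulators, 3 of 5 measured genes were higher in line 4 than in line 1 (10.6% of all probe sets), namely AT2G22880, AT5G52020 and WRKY53 at 3.36, 3.21 and 2.39. In line 4 against the control these differed by -0.07, 0.12 and 0.42 and did not pass. The line 1 values of AT2G22880 and AT5G52020, 2.2 and 1.2 units, were also raised to the floor. Their differences of 3.36 and 3.21 therefore depend on it as well.

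The cold response list, with 5 of 7 measured genes lower in line 4 than in the control (6.97% of all probe sets), held COR15A and COR15B, which had met the members' criterion. STZ and LTI30, at -0.21 ± 0.08 and -0.27 ± 0.10 against the control, did not pass there but were higher in line 4 than in line 1, by 2.50 and 1.32. COR27 and AT4G33980 had the opposite order, lower in line 4 than in line 1 by -0.73 and -0.65. They missed the members' criterion since line 1 read 230.5 and 235.8 units, against control values of 288.9 and 266.2 for COR27 and 244.0 and 282.4 for AT4G33980. The clock and evening-phased list, which shares these 2 genes, had 3 of 5 measured genes lower in line 4 than in the control.

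Of the CC-type glutaredoxins, small redox proteins that bind TGA transcription factors, 9 of 20 were measured. Besides AT3G62950, the genes AT4G15690, AT4G15680, AT3G62930 and AT5G18600 fell in line 4 against the control, by 1.45, 0.91, 1.00 and 0.46 on the log2 scale, while GRX480 and AT1G06830 rose by 1.76 and 0.69. In line 1 AT4G15690 read 79.2 units, above its control values of 56.6 and 58.2, so that it was no member. Of the wall genes, 4 of 9 measured were lower in line 4 than in the control and 2 higher (6.97% and 8.22% of all probe sets), with the member AT1G57590 among the lower. Another was AT1G10640, a pectin lyase-like gene, which read 23.2 and 24.6 units in line 4, 29.7 in line 1 and 41.1 on the array of conflicting labels, against 73.0 and 53.6 in the control. In the hypoxia list 3 of 6 measured genes fell in line 4, with AT4G39675 and AT1G33055 at -2.23 and -2.22, and on the array of conflicting labels both read above the control. In the auxin list 2 of 4 measured genes fell and 1 rose in line 4, and in the list of abscisic acid and drought response 1 of 2 fell, AT3G05640. The hypoxia and auxin lists held no gene that met the members' criterion. The cold, clock, touch, early stress and abscisic acid lists hold the 6 genes that met it and were left out by name, COR15A, COR15B, AT1G07050, CML23, AT1G19210 and AT3G05640.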

How the data were processed

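Biotin-labelled cRNA was hybridised to Affymetrix ATH1 arrays, 1 for each sample, per the labels' protocols. The authors deposited a linear intensity per probe set, and how they combined the probes is not stated in the labels. Each array had a trimmed mean (2% cut at each end) of 100.01. After 64 control probe sets were set aside, 22746 of 22810 remained, of which 13513 had 1 gene in the platform annotation, 503 several and 8730 none. Names were updated for 13436 through the TAIR10.1 gene table, used for names and gene order only.

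The members, roles and lists were chosen with earlier results of these data known. Values were floored at 10 units, log2-transformed and fitted with limma 3.58.1 under R 4.3.3 (lmFit, eBayes, trended variance) as 5 arrays in 3 groups with 2 residual degrees of freedom. Benjamini-Hochberg adjustment covered the 14300 probe sets with 30 units or more on at least 2 of the 5 grouped arrays, which every member passes through its control values. The labels do not say whether the pools were grown on separate occasions, so the p-values may cover technical spread only, and the number of arrays limits the precision. The rule for named genes took the 24 members of 1 gene with the largest ratio of the lower control to the highest other array, members on the lists, the 6 smallest p-values in each direction of line 4 against line 1, the edge of the rule and up to 3 genes a list. The other named members and list genes were added after their values were seen. Replicate numbers share only a number (correlation of same-numbered deviations of line 4 and the control -0.079). A planned promoter motif search was not run.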

Additional observations from a re-analysis of the deposited data

Results flagged for a closer look

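The difference from the shared control was unequal in line 4 and line 1 for 7 named members among those with the smallest p-values. The limma test was of line 4 minus line 1, in which line 1 is 1 array. The rule had used the values of both lines, so the 7 were not chosen independently of them. The log2 differences were 3.01 for AT4G27654, 1.83 for ORA47, 1.66 for AT5G17350, 1.68 for PUB19, 1.16 for AT1G04770, 0.86 for AT5G51390 and -0.67 for AT3G62950. In each of the first 6, both line 4 arrays lay above the line 1 array and above the array of conflicting labels, and in AT3G62950 below both. The 25S ribosomal RNA probe set was also dimmer on the line 4 arrays, at 275.4 and 915.9 units, than on the line 1 array, at 1073.1, and its part in these differences was not tested.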

How the results depend on the processing

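The number of members, 81, was 305 with a factor of 1.2 and 10 with a factor of 2, and between 108 and 333 when 1 grouped array was left out (138 without the array of conflicting labels), which can only add members. It was 76 to 81 with another floor or quantile normalization and 63 with controls of at least 60 units. Quantile normalization also changed which probe sets were members, since of its 80 members 74 were among the 81. In the fit of line 4 against line 1, 2592 probe sets passed. With the array of conflicting labels as line 1 there were 1192 (1 member lower), and with it as control 110 (0 members, 0 higher and 0 lower). No filter gave 983 (12 members, 12 higher and 0 lower), no variance trend 1681 (1 member lower), and leaving out 1 replicate 975 to 3448 in all, with 21 to 31 members, 20 to 28 higher and 0 to 3 lower. Line 4 against the control gave 2173, but 303 and 185 with that array as line 1 and as control, 130 with no filter, 1149 with no trend and 318 to 2221 without 1 replicate. With the replicate block, 2833 probe sets and 32 members passed in line 4 against line 1, and 2813 probe sets in line 4 against the control. For AT1G57590 the sign changed, to 0.14, once that array was counted as line 1. For AT1G21480 the difference was -2.53 without line 4 replicate 1, where it rests on a line 4 value of 10.4 units, close to the floor. With the block it passed, at -2.03. The block is a term for the replicate number of the title code, and it leaves fewer residual degrees of freedom. All 7 named calls flagged above were lost with that array as control, and 4 of them with no filter. AT3G05400, AT4G27657 and AT3G58550, which also passed in the main fit, were not followed gene by gene through these settings. The cause was not tested. The rule placed the array of conflicting labels below both controls for every member, so adding it to the control widens their spread. Nothing is read from the calls lost in that fit. Probe sets near the floor carry little signal, which limits the 11 members with a value at or under 10 units. The same limit holds for the line 4 to line 1 differences of the list genes AT3G01830, CML37, AT2G22880 and AT5G52020.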
